A study of Mus musculus with 10 samples.

Results

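The genes described here encode 10 proteins of the extracellular matrix: the ADAMTS-like proteins *Adamtsl1*, *Adamtsl2*, *Adamtsl3*, *Adamtsl4* and *Thsd4*, the hemicentin *Hmcn1*, the fibrillins *Fbn1* and *Fbn2*, and the procollagen C-proteinase enhancers *Pcolce* and *Pcolce2*. They are 10 of 18444 genes in the table of normalised read counts, and all 10 were among the 17020 genes tested, because the mean of each reached the minimum of 10. They were chosen by name as relatives in the matrix, but *Adamtsl3* was selected on its measured difference between *Arid1b* heterozygous (HT) and wild-type (WT) mice once the library HT 4 was left out, and the list was drawn up with results of this same comparison known. The HT against WT values of the 10 genes are therefore descriptions, given with their errors and with no p-value.

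The libraries are messenger RNA of whole brain from 10 male mice of the strain C57BL/6N, taken at postnatal day 3 (P3). There were 5 HT and 5 WT mice, each giving 1 library. In HT mice, CRISPR/Cas9 was aimed at exon 5 of *Arid1b*, and 1 allele carries a protein-truncating edit that the study's methods give as a deletion with a short insertion. *Arid1b* encodes a DNA-binding subunit of the BAF chromatin remodelling complex. The allele is germline, so every cell of an HT mouse carries it, and all HT mice come from a single edited line bred from HT fathers and WT mothers. No drug, dose or other treatment is labelled for these mice, and both groups share strain, sex, age and tissue.

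ADAMTS-like proteins resemble the secreted ADAMTS metalloproteases but lack the protease domain. Several of them bind fibrillin microfibrils, the thin filaments that are assembled from fibrillins, that scaffold elastic fibres and that hold latent TGF-beta and BMP ligands in the matrix. Hemicentin 1 is a very large matrix protein found at basement membranes and cell junctions, and PCOLCE and PCOLCE2 speed the removal of the C-terminal propeptide from fibrillar procollagens by the protease BMP1. In brain, such matrix genes are best known from the meninges, the vessel walls and the choroid plexus, and several are also transcribed in neurons or glia.

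The promoters of *Adamtsl3*, *Hmcn1* and *Pcolce2* are printed because these are the 3 of the 10 genes whose HT and WT means lay furthest apart on the log2 scale. Each is the 250 bases before the RefSeq transcription start on the strand of the gene (build GRCm38.p6). Windows from the RefSeq promoter table were kept for 8 of the 10 genes, which does not show that the rest lack an entry. Capitals mark matches on either strand to the GC box (GGGCGG) or the CCAAT box (CCAAT). The TATA box (TATAAA) and the AP-1 motif (TGANTCA) were also searched on both strands, and neither had a match in these 3 windows. The *Adamtsl3* window (chr7:82335444-82335693, plus strand), the *Hmcn1* window (chr1:150993436-150993685, minus strand) and the *Pcolce2* window (chr9:95637378-95637627, plus strand) read, 5′ to 3′:
Adamtsl3: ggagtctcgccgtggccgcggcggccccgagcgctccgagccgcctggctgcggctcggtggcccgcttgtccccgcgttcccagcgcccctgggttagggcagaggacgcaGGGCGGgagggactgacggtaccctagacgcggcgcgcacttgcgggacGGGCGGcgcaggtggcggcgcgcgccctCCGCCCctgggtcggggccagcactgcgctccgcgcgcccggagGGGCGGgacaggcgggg
Hmcn1: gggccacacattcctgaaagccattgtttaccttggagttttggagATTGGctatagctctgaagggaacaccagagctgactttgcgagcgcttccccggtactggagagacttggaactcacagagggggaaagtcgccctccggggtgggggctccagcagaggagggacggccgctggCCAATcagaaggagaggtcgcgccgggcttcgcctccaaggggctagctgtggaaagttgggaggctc
Pcolce2: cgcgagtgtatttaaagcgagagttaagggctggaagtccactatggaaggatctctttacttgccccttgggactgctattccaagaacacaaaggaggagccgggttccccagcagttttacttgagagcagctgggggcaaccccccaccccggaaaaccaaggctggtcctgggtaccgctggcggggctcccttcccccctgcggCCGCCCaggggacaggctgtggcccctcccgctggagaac

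The *Adamtsl3* promoter held 4 GC boxes and 39 CG dinucleotides and was 80.0% G or C. The *Hmcn1* promoter was 60.0% G or C, with 2 CCAAT boxes, no GC box and 11 CG dinucleotides. The *Pcolce2* promoter was 61.2% G or C, with 1 GC box, no CCAAT box and 10 CG dinucleotides. Over all 32851 promoter windows of the same length, 32.74% held a GC box, 33.85% a CCAAT box, 12.37% a TATA box and 6.749% an AP-1 motif, and the median number of CG dinucleotides was 6. No motif among those searched was in all 3 promoters, though *Adamtsl3* and *Pcolce2* both held a GC box. The matches describe letters in the windows only.

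Library totals ran from 27.2 to 29.03 M normalised counts (M, 1000000). *Arid1b* itself, the edited gene, had 2101 ± 343 normalised counts in HT (SD, n = 5; range 1505 to 2372) against 3335 ± 203 for WT (SD, n = 5; range 3108 to 3597), so HT stood at 63.0% of WT and the groups did not overlap. The ratio of HT to WT was 0.630 with all libraries and 0.675 without HT 4. The log2 fold change of *Arid1b* was -0.68 ± 0.11 (SE; limma adjusted p = 0.390) with all libraries and -0.57 ± 0.05 (adjusted p = 2.52e-04) without HT 4. HT 4 stood apart: its median absolute log2 deviation from the gene means was 0.209, against 0.0772 to 0.108 in the other 9 libraries. Values that rest on HT 4 are given with and without it. Neuron markers summed to between 192237 and 212253 normalised counts in every library, which fits the labelled tissue. In such bulk samples, fewer cells of a type and less RNA per cell cannot be told apart.

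Of the 10 genes, *Adamtsl3* and *Hmcn1* were higher in HT by about 1 on the log2 scale, *Pcolce2* was lower by 0.81, and the other 7 differed by less than 0.25. The counts were even, with 5 genes higher and 5 lower in HT, both with all libraries and without HT 4. The median log2 fold change of the 10 genes was 0.0040 (0.019 without HT 4), beside -0.0074 (-0.00081) for all genes tested. Among all genes tested, 7897 were higher and 9123 lower in HT (8447 and 8573 without HT 4). An absolute log2 fold change over 0.5 was found for 482 (2.83%) of all genes tested and for 3 of these 10. The list was drawn up with this comparison known, so nothing is read from that count.

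With all libraries, limma gave 0 of the 10 genes an adjusted p below 0.05. The share over all genes tested was 0%, and 580 genes had an unadjusted p under 0.05. Without HT 4, 1 of the 10 passed, *Adamtsl3*, against 0.0118% of all genes tested (2 genes, the other being *Arid1b*), with 1429 genes at an unadjusted p under 0.05. In 0 of the 10 did the HT and WT libraries fail to overlap when all were used, while 0.282% of all genes did not overlap and were higher in HT and 0.347% did not overlap and were lower. Without HT 4, 1 of the 10 did not overlap, *Adamtsl3*, which was higher in HT, against 1.75% of all genes for higher and 1.21% for lower. The list was chosen with this comparison known, and nothing is read from these counts.

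**Figure D1:**
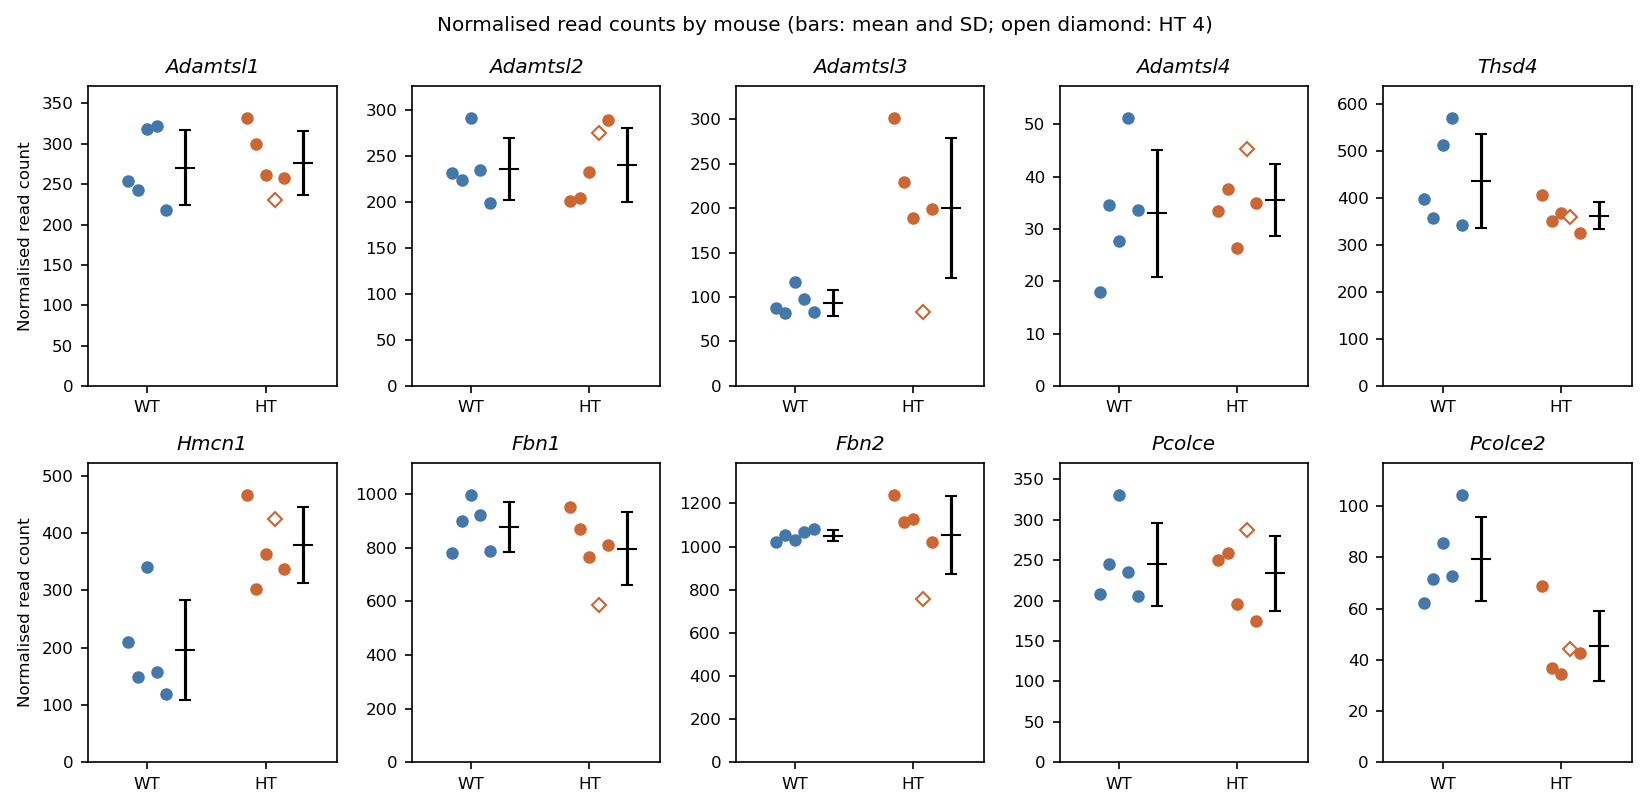
Normalised read counts (vertical axis) of the 10 genes in each mouse, with WT in blue and HT in orange, HT 4 as an open diamond, and the mean ± SD of each group beside its points. For Adamtsl3, 4 HT libraries lie between 188.7 and 301.2 and HT 4 lies among the WT libraries at 83.4.

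*Adamtsl3* (ENSMUSG00000070469, chr7:82335694-82614450, plus strand, 30 exons and 7249 bases in its longest coding transcript) encodes an ADAMTS-like glycoprotein of the matrix. Its normalised counts in HT 1 to HT 5 were 301.2, 229.7, 188.7, 83.4 and 198.6. In WT 1 to WT 5 they were 87.9, 82.0, 116.7, 97.5 and 83.4. HT 1, 2, 3 and 5 were each above every WT library, while HT 4 lay within the WT range. HT averaged 200.3 ± 78.8 and WT 93.5 ± 14.3 (SD, n = 5 each), a ratio of 2.14 and a log2 fold change of 0.99 ± 0.27 (SE). Without HT 4 the HT mean was 229.5 ± 50.8 (SD, n = 4), the ratio was 2.45 and the log2 fold change 1.27 ± 0.15.

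The SD of *Adamtsl3* on the log2 scale was 0.69 over the 5 HT libraries, 0.30 without HT 4, and 0.21 over the 5 WT libraries. The medians over all genes tested were 0.177, 0.115 and 0.121. Over the alternatives run, its log2 fold change went from 0.81, when HT 1 was left out, to 1.27, when HT 4 was left out, and kept its sign in all of them.

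*Hmcn1* (ENSMUSG00000066842, chr1:150562524-150993435, minus strand) encodes hemicentin 1 and has the longest transcript of the 10 genes, 17908 bases in 107 exons. Its normalised counts in HT 1 to HT 5 were 466.9, 301.8, 364.1, 424.5 and 337.5. In WT 1 to WT 5 they were 209.9, 149.1, 340.3, 158.4 and 119.6. Only WT 3 reached the HT range, above HT 2 and HT 5, and the other 4 WT libraries were below every HT library. HT averaged 379 ± 66.5 and WT 195 ± 87.3 (SD, n = 5 each), a ratio of 1.94 (1.88 without HT 4). On the log2 scale the difference was 1.03 ± 0.24 (SE), 0.99 ± 0.27 without HT 4 and 1.26 without WT 3. HT 4 had the second highest *Hmcn1* value of all 10 libraries, the opposite of its place for *Adamtsl3*.

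WT 3 also held more RNA of cartilage and muscle markers than the others. The 6 cartilage and bone markers in the table, of 8 listed, summed to 661 normalised counts in WT 3 against 183 to 278 in the other 9 libraries, with the group ranges 203 to 244 in HT and 183 to 661 in WT. The 7 skeletal muscle markers, of 8 listed, summed to 487 in WT 3 against 163 to 307 elsewhere. *Bglap*, *Ckm* and *Tnni2*, defining markers of bone and of muscle, were at 0 in at least 1 library. Of the 10 genes, *Adamtsl2*, *Adamtsl3*, *Hmcn1*, *Fbn1* and *Pcolce* had their highest WT value in WT 3. The part of such tissue in the WT 3 values was not tested.

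*Pcolce2* (ENSMUSG00000015354, chr9:95637601-95698096, plus strand, 9 exons and 4438 bases) encodes an enhancer of procollagen C-proteinase and was the low counterpart of the other 2 genes. Its normalised counts in HT 1 to HT 5 were 68.9, 37.1, 34.6, 44.3 and 42.8. In WT 1 to WT 5 they were 62.4, 71.7, 85.5, 72.6 and 104.5. HT 1 alone overlapped WT, above WT 1 and below the other 4 WT libraries, while the other 4 HT libraries were below every WT library. HT averaged 45.5 ± 13.7 and WT 79.3 ± 16.3 (SD, n = 5 each), a ratio of 0.574. On the log2 scale the difference was -0.81 ± 0.20 (SE), -0.81 ± 0.21 without HT 4 and -0.97 without HT 1.

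Choroid plexus markers differed between the groups in the direction of *Pcolce2* and against *Hmcn1*. Over the 10 libraries, the Pearson r of their mean log2 deviation was 0.68 with *Pcolce2* and -0.81 with *Hmcn1*. With the mean of each group taken out, r was 0.33 for *Pcolce2* and -0.63 for *Hmcn1*. It was then -0.68 for *Adamtsl2* and 0.66 for *Adamtsl4*. Other marker lists gave values as large for some of the genes. With group means taken out, r was 0.65 between *Hmcn1* and the cartilage and bone markers. It was 0.76 between *Adamtsl2* and the oligodendrocyte lineage markers, and -0.85 between *Adamtsl1* and the erythroid markers. The 12 choroid plexus markers, all in the table, summed to between 7330 and 10277 normalised counts in HT. In WT they summed to between 10890 and 14706, so that the groups did not overlap, and none was at 0 in any library. Of the 12, 1 (*Prlr*) was higher in HT, 4 had an unadjusted p under 0.05 in limma, and 0 passed after adjustment. The share of all genes tested at that unadjusted p was 3.41% in either direction. The mean log2 deviation of the 12 markers, used for r, overlapped between the groups, at -0.02 in HT 1 and -0.15 in WT 1. *Ttr*, the thyroid hormone carrier made by this epithelium, gave 87.3% of the sum. Without *Ttr* the other 11 markers summed to 1149 to 1391 in HT and 1268 to 1707 in WT, which overlapped. The part of choroid plexus tissue in the *Pcolce2* and *Hmcn1* values was not tested.

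**Figure D2:**
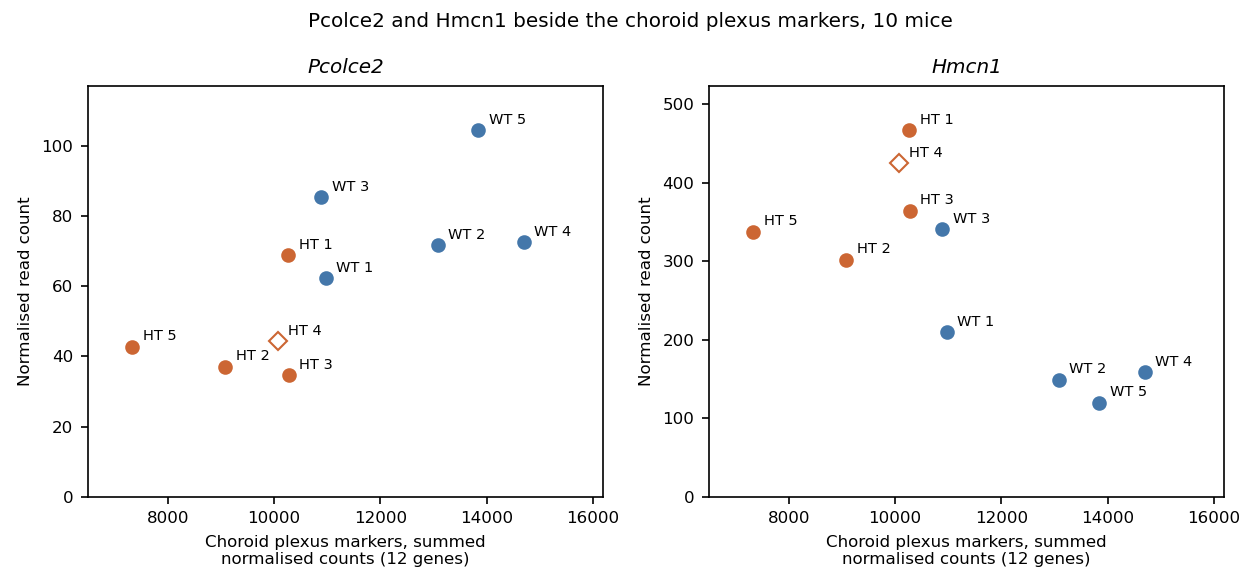
Normalised read counts of Pcolce2 (left) and Hmcn1 (right) on the vertical axes against the summed normalised counts of 12 choroid plexus markers on the horizontal axes, 1 point per mouse, with WT in blue, HT in orange and HT 4 as an open diamond. All HT libraries lie at or below 10277 on the horizontal axis and all WT libraries at or above 10890.

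Markers of the meninges and vessels overlapped between the groups. Meningeal fibroblast markers (12 of 12 in the table) summed to 2992 to 4421 normalised counts in HT and 3186 to 4388 in WT. Mural cell markers (11 of 11) ranged from 6283 to 8248 in HT and from 6547 to 8280 in WT, and endothelial markers (12 of 12) from 6614 to 8105 and from 7107 to 7774. No marker of these 3 lists was at 0 in any library.

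Of the ADAMTS-like relatives of *Adamtsl3*, none differed by as much. *Adamtsl1* (ENSMUSG00000066113, chr4:85514172-86428385, plus strand, 28 exons), whose protein is also called punctin, had 331.8, 300.0, 261.5, 229.8 and 257.0 normalised counts in HT 1 to HT 5. Its WT 1 to WT 5 values were 253.5, 242.2, 317.8, 321.7 and 217.5. The groups overlapped over most of their range, at a mean of 276 ± 40.0 for HT and 271 ± 46.8 for WT (SD, n = 5 each). The log2 fold change was 0.03 ± 0.13 (SE), or 0.10 ± 0.13 without HT 4. HT 4 was the lowest HT library for *Adamtsl1* as it was for *Adamtsl3*, though by far less.

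*Adamtsl2* (ENSMUSG00000036040, chr2:27079379-27108981, plus strand, 19 exons), which binds fibrillin 1 and whose human orthologue is mutated in geleophysic dysplasia, a short-stature disorder, had 201.4, 205.0, 233.1, 275.7 and 289.4 normalised counts in HT 1 to HT 5. Its WT 1 to WT 5 values were 231.3, 224.2, 291.5, 234.6 and 198.6. Both groups covered almost the same range, with means of 241 ± 40.2 (HT) and 236 ± 34.1 (WT) (SD, n = 5 each). Their log2 fold change was 0.02 ± 0.13 (SE), or -0.03 ± 0.13 without HT 4. Its sign changed in 5 of 20 alternatives.

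*Adamtsl4* (ENSMUSG00000015850, chr3:95676201-95687917, minus strand, 18 exons), whose protein binds fibrillin 1 in the fibres that hold the eye lens, had the fewest normalised counts of the 10 genes. Its normalised counts were 33.5, 37.6, 26.3, 45.3 and 34.9 in HT 1 to HT 5. In WT 1 to WT 5 they were 17.9, 34.7, 27.8, 51.2 and 33.6, so that WT held both the lowest and the highest library. HT averaged 35.5 ± 6.86 and WT 33.0 ± 12.1 (SD, n = 5 each), with a log2 fold change of 0.16 ± 0.26 (SE), or 0.07 ± 0.27 without HT 4.

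*Thsd4* (ENSMUSG00000032289, chr9:59966931-60522046, minus strand, 18 exons) encodes ADAMTSL6, which promotes the assembly of fibrillin 1 into microfibrils. Its normalised counts were 406.2, 351.6, 366.9, 360.0 and 325.7 in HT 1 to HT 5. In WT 1 to WT 5 they were 397.9, 356.9, 511.9, 569.5 and 343.2. The HT libraries lay close together near the lower end of the WT range, and WT 3 and WT 4 were above every HT library. HT averaged 362 ± 29.2 and WT 436 ± 99.9 (SD, n = 5 each). The log2 fold change was -0.24 ± 0.13 (SE), or -0.24 ± 0.14 without HT 4, and ranged from -0.32 to -0.14 over the alternatives, the smaller when WT 4 was left out.

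**Figure D3:**
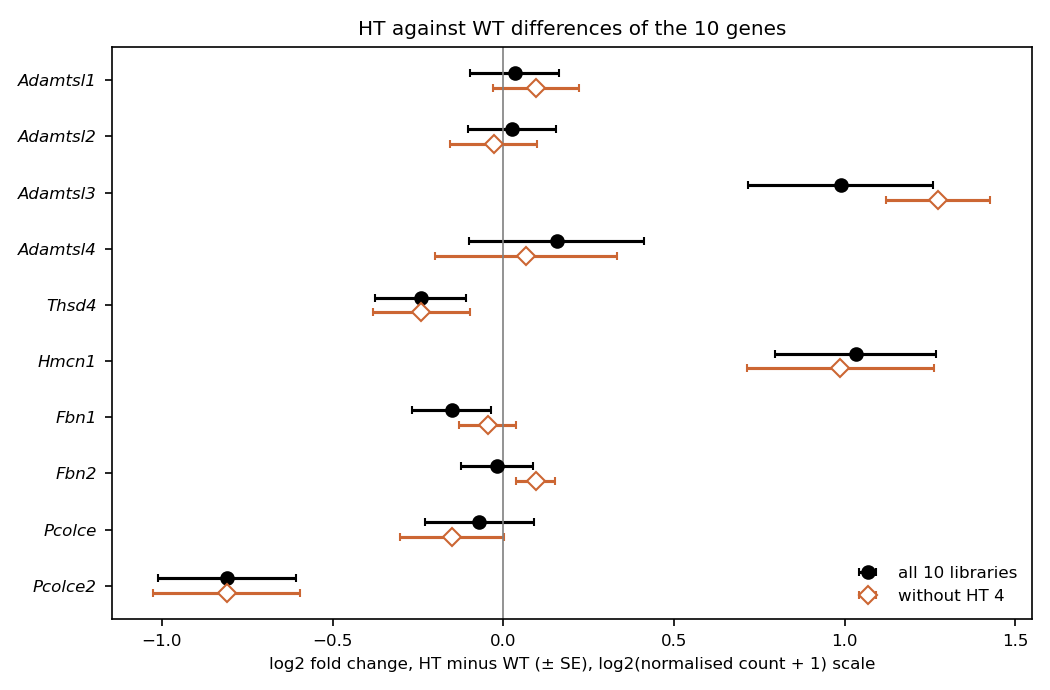
Log2 fold change, HT minus WT, on the log2(normalised count + 1) scale (horizontal axis) of the 10 genes, as the value ± SE from limma with all 10 libraries (black circles) and without HT 4 (open diamonds). Adamtsl3 moves from 0.99 to 1.27 without HT 4, while Hmcn1 and Pcolce2 stay near 1 and -0.81.

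The fibrillins, the building blocks of the microfibrils to which ADAMTS-like proteins bind, were among the more abundant of the 10 genes. *Fbn1* (ENSMUSG00000027204, chr2:125300594-125507993, minus strand, 65 exons), the Marfan syndrome gene, had 949.8, 869.2, 766.1, 587.2 and 810.8 normalised counts in HT 1 to HT 5. Its WT 1 to WT 5 values were 781.0, 900.1, 997.7, 921.4 and 787.4. HT 4 was the lowest of all libraries and the other HT libraries lay within or just below the WT range. Mean values were 797 ± 136 (HT) and 878 ± 92.7 (WT; SD, n = 5 each). The log2 fold change was -0.15 ± 0.12 (SE), or -0.05 ± 0.08 without HT 4.

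*Fbn2* (ENSMUSG00000024598, chr18:58008623-58210487, minus strand, 65 exons), the fibrillin best known from fetal tissue, had 1240.3, 1113.9, 1125.3, 759.0 and 1020.6 normalised counts in HT 1 to HT 5. Its WT 1 to WT 5 values were 1021.9, 1053.7, 1029.5, 1065.9 and 1081.3. The WT libraries were nearly alike, with a log2 SD of 0.03, the lowest of the 10 genes, while HT held both the highest library (HT 1) and the lowest (HT 4). Mean values were 1052 ± 181 (HT) and 1050 ± 24.8 (WT; SD, n = 5 each), and the log2 fold change was -0.02 ± 0.11 (SE) with all libraries and 0.10 ± 0.06 without HT 4.

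*Pcolce* (ENSMUSG00000029718, chr5:137605103-137613784, minus strand, 9 exons and 1626 bases), the other procollagen C-proteinase enhancer, did not share the low HT values of *Pcolce2*. It had 249.8, 258.7, 196.0, 287.6 and 174.9 normalised counts in HT 1 to HT 5 and 208.1, 244.8, 330.8, 234.7 and 205.2 in WT 1 to WT 5. The ranges overlapped over most of their span, with the lowest library in HT and the highest in WT. Mean values were 233 ± 46.5 (HT) and 245 ± 51.0 (WT; SD, n = 5 each), with a log2 fold change of -0.07 ± 0.16 (SE), or -0.15 ± 0.15 without HT 4.

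HT 4 had the strongest trend along transcript length, with a Spearman correlation of -0.50 between deviation and length. In the other libraries it ran from -0.18 (WT 5) to 0.34 (HT 1). All tested genes were ranked by the longest coding transcript, or by the longest of any type where a gene had no coding one. The deviation of HT 4 from the gene means had a median of 0.27 on the log2 scale for the lowest decile (no more than 1238 bases). For the highest decile (at least 6580 bases) it was -0.34. Of the 10 genes, 6 have longest coding transcripts above that length, *Adamtsl1*, *Adamtsl3*, *Thsd4*, *Hmcn1*, *Fbn1* and *Fbn2*. For the fibrillins the HT 4 deviation was close to the trend of all genes: -0.50 for *Fbn1* and -0.46 for *Fbn2*, which became -0.04 and -0.03 once a lowess trend on length was taken out of each library.

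*Adamtsl3* and *Hmcn1* left that trend in opposite directions. For *Adamtsl3*, the HT 4 deviation was -0.64 and became -0.37 after the trend was removed, a value inside the WT range of -0.64 to -0.23 and below the 0.48 to 1.10 of the other HT libraries. For *Hmcn1*, HT 4 was 0.70 above the gene mean although this is the longest of the 10 transcripts, and it was 1.30 above after the trend was removed. What set HT 4 apart was not tested.

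**Figure D4:**
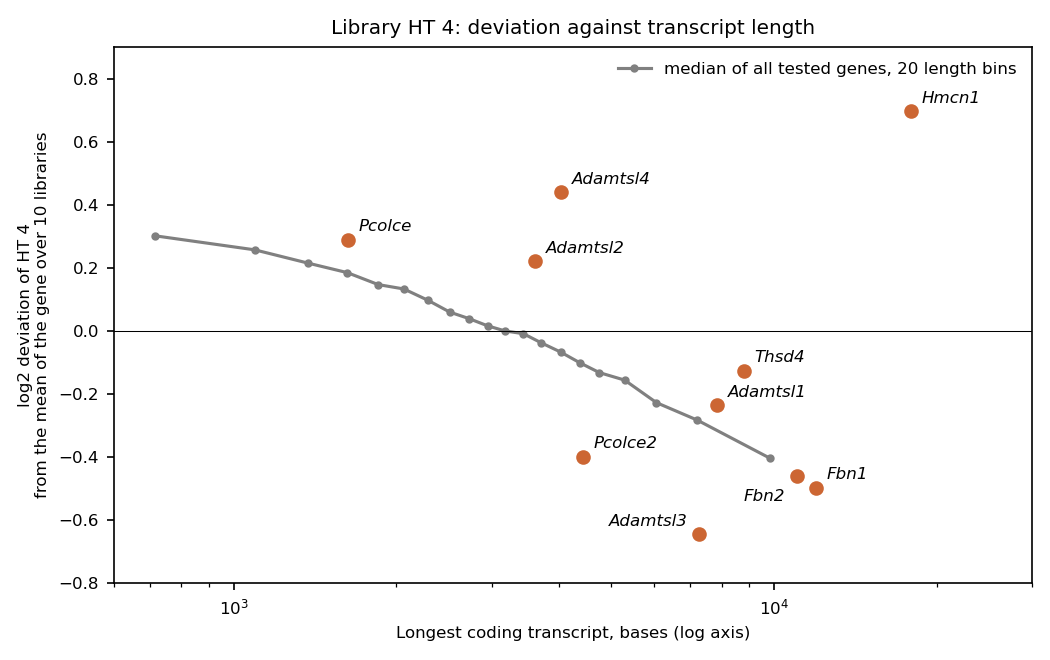
Log2 deviation of the library HT 4 from the mean of each gene over 10 libraries (vertical axis) against the length of the longest coding transcript in bases (horizontal log axis), with the median of all tested genes in 20 length bins in grey and the 10 genes as orange points. Genes with no coding transcript enter the bins by their longest transcript of any type. Fbn1 and Fbn2 lie by the grey line at -0.50 and -0.46, Adamtsl3 lies below it at -0.64 and Hmcn1 above it at 0.70.

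Levels of different genes were compared only per length, as normalised counts per kilobase (kb) of the longest coding transcript. In WT the order of mean levels was *Pcolce* (150.5 ± 31.4 per kb), *Fbn2* (95.1 ± 2.24), *Fbn1* (73.3 ± 7.74), *Adamtsl2* (65.4 ± 9.43), *Thsd4* (49.6 ± 11.4), *Adamtsl1* (34.5 ± 5.97), *Pcolce2* (17.9 ± 3.67), *Adamtsl3* (12.9 ± 1.98), *Hmcn1* (10.9 ± 4.87) and *Adamtsl4* (8.18 ± 3.01; SD, n = 5 for each). Neighbours in this order were separated in all WT libraries at only 3 steps, from *Pcolce* to *Fbn2*, from *Fbn2* to *Fbn1* and from *Adamtsl1* to *Pcolce2*. At each of the other 6 steps the WT ranges of the neighbours overlapped. The 3 genes with the widest gaps between HT and WT were thus among the 4 with the lowest levels per kb.

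**Figure D5:**
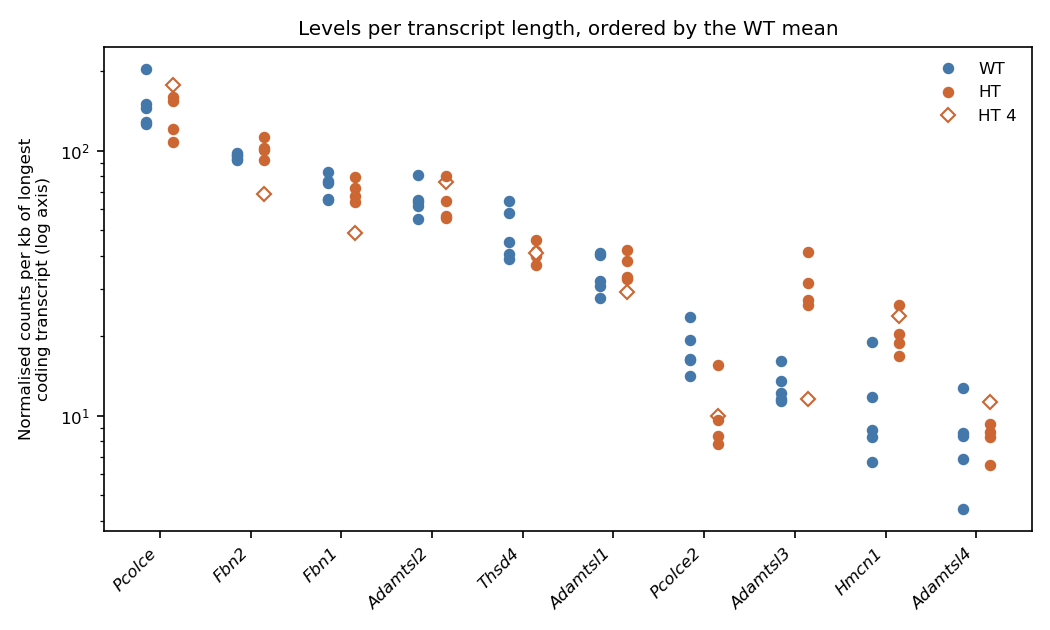
Normalised counts per kb of the longest coding transcript (vertical log axis) for the 10 genes in each mouse, ordered by the WT mean, with WT in blue, HT in orange and HT 4 as an open diamond. WT means run from 150.5 for Pcolce to 8.18 for Adamtsl4, and Pcolce2, Adamtsl3 and Hmcn1 stand 7th to 9th.

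Variation among WT mice also differed between the 10 genes. The log2 SD over the 5 WT libraries was 0.58 for *Hmcn1*, 0.53 for *Adamtsl4*, 0.32 for *Thsd4*, 0.28 for *Pcolce* and for *Pcolce2*, 0.25 for *Adamtsl1*, 0.21 for *Adamtsl3*, 0.20 for *Adamtsl2* and 0.15 for *Fbn1*, and it was lowest for *Fbn2*. All but *Fbn2* were above the median of 0.121 over all genes tested. The place of *Hmcn1* at the top rested on WT 3. Without that library its SD was 0.33, below the 0.61 of *Adamtsl4*, and over the 5 HT libraries it was 0.25. Leaving out WT 3 also took *Pcolce* to 0.13, *Adamtsl3* to 0.11 and *Adamtsl2* to 0.11.

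Reads shared with other genes were looked for in the annotation. No 31-base stretch of the *Adamtsl1*, *Adamtsl3* or *Pcolce2* transcripts occurred in a transcript of another gene, and of the other 7 *Pcolce* shared the most, 2.61% of its stretches, mainly with *Fbxo24*. *Adamtsl1* overlaps *Sh3gl2* on the same strand, and *Pcolce* overlaps *Fbxo24* on its own strand and *Gm36266* on the other. The labels name a kit that keeps strand, but whether strand was used in counting is not given in the sources used here, so the reads of *Pcolce* and *Gm36266* may not be fully separate.

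The chromosomal neighbours of the 3 genes with the widest gaps had log2 fold changes between -0.23 and 0.19. The nearest tested genes were *Sh3gl3* before *Adamtsl3* (28275 bases away, log2 fold change 0.08) and *Saxo2* after it (18510 bases, 0.19). Beside *Hmcn1* they were *Prg4* (-0.23) and *Gm10138* (0.01), and beside *Pcolce2* they were *Paqr9* (-0.03) and *Trpc1* (0.0033). The limma adjusted p was 1.00 for each of these 6 neighbours.

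The genes whose log2 values over the 10 libraries were most like those of *Adamtsl3* were *Dnmt3b* (Pearson r = 0.912), *Flt1* (0.910), *Peg10* (0.908), *Smyd3* (0.903) and *Gad2* (0.899). They are given as a description with no test, over 10 libraries that share a genotype difference and the HT 4 library. *Dnmt3b*, a DNA methyltransferase, ranged from 92.1 to 113.6 normalised counts in HT, with HT 4 the lowest, and from 77.4 to 99.1 in WT. *Gad2*, a GABA-synthesising enzyme, ranged from 3218 to 3802 in HT and from 3193 to 3533 in WT, again with HT 4 as the lowest HT library. In all 5 of these genes HT 4 was the lowest HT library, as it was for *Adamtsl3*, and their HT and WT ranges overlapped. Their mean differences between the groups were small beside that of *Adamtsl3*.

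The partners of the 10 genes were examined in 6 lists that do not contain them, and in none did a gene pass the threshold in limma, with all libraries or without HT 4. The smallest adjusted p was 1.00 with all libraries and 0.446 without HT 4. For the counts at an unadjusted p under 0.05 that follow, the shares over all genes tested were 1.47% higher and 1.93% lower in HT with all libraries, and 4.69% and 3.71% without HT 4. Microfibril and elastic fibre genes (21 tested of 22) were 11 higher and 10 lower in HT (median log2 fold change 0.0054), and 7 higher and 14 lower with a median of -0.09 without HT 4. At an unadjusted p under 0.05 there was 1 in each direction with all libraries, and there were 0 higher and 3 lower without HT 4. The smallest p belonged to *Mfap2*, a microfibril component, at 522 ± 32.4 normalised counts in HT and 584 ± 23.3 in WT (log2 fold change -0.16), and *Fbln7*, a fibulin, at 116 ± 8.80 and 98.7 ± 3.58 (0.23).

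The ADAMTS proteases and remaining ADAMTS-like and hemicentin relatives (21 tested of 22) were 10 higher and 11 lower, with a median of -0.03 and 2 lower at an unadjusted p under 0.05. Leaving out HT 4 turned the balance to 13 higher and 8 lower, with a median of 0.05 and 2 higher and 1 lower at that p. The 2 genes with the smallest p over all libraries were *Hmcn2* and *Adamts1*. *Hmcn2*, the other hemicentin, averaged 57.4 ± 22.0 for HT and 77.7 ± 11.4 for WT, a log2 fold change of -0.50 (-0.67 without HT 4), the opposite sign to *Hmcn1*. The HT range of *Hmcn2*, 39.3 to 88.1, overlapped the WT range, 63.1 to 88.7. *Adamts1*, a protease of the proteoglycans, had a log2 fold change of -0.26.

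Procollagen processing genes and fibrillar collagens, on which the PCOLCE proteins act, were 11 higher and 15 lower (26 tested of 26), with a median of -0.02 and 3 lower at an unadjusted p under 0.05. Without HT 4 they were 10 higher and 16 lower, with a median of -0.05 and 4 lower at that p. *Bmp1*, the procollagen C-proteinase itself, averaged 1362 ± 66.8 for HT and 1494 ± 98.6 for WT (log2 fold change -0.13). *Col5a2*, a fibril-forming collagen, had 825 ± 45.1 in HT and 1055 ± 223 in WT (-0.33). Genes that glycosylate thrombospondin repeats, the repeats found in ADAMTS-like proteins, were 5 higher and 1 lower (6 tested) with a median of 0.04, or 0.05 with the same counts without HT 4, and *Dpy19l1* (0.05) and *Dpy19l2* (0.18) had the smallest p.

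TGF-beta and BMP ligands, receptors and integrin activators, which act through latent ligands held on microfibrils, were 5 higher and 14 lower (19 tested of 20), with a median of -0.02 and none at an unadjusted p under 0.05. This split rested on HT 4, since without it 9 were higher and 10 lower, with a median of -0.0041. *Bmp4* averaged 155 ± 52.6 for HT and 115 ± 28.8 for WT (log2 fold change 0.39), and *Bmp2* had 142 ± 14.0 and 123 ± 19.3 (0.22). Basement membrane genes were 4 higher and 14 lower (18 tested) with a median of -0.04, and 3 higher and 15 lower without HT 4 with a median of -0.08. At an unadjusted p under 0.05, 2 were lower with all libraries and 5 without HT 4. *Col4a1*, the main collagen IV chain, had 5568 ± 205 in HT and 6214 ± 465 in WT (-0.16), and *Nid1*, a linker of laminin and collagen IV, had 2332 ± 207 and 2668 ± 186 (-0.20).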

How the data were processed

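The deposited signal table holds 1 normalised read count per gene and library. Per the study's methods and the submitters' processing notes, the authors quantified reads with Salmon 1.1.0 on GRCm38, imported them with tximport and divided them by size factors with DESeq2 1.30.1. The annotation release is not given in the sources used here. Whole reads could not be recovered, so no count test was run. Symbols, positions and lengths came from GENCODE M21 (18431 identifiers matched).

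Values were analysed as log2(value + 1), which understates changes of low genes, in R 4.3.3 with limma 3.58.1 (trend, robust, two-sided, no covariate). Genes with a mean of at least 10 were tested (1424 were left out), with Benjamini-Hochberg adjustment over all tested genes and a threshold of 0.05. The workflow was tested on simulated data. The groups came from the labels, with 1 library per mouse, so p-values measure the spread between mice. The normalised totals (27.2 to 29.03 M) come after division by size factors, so they do not measure sequencing depth. Counting error was not modelled. The length trend was a lowess fit (span 0.3) per library.

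The members and all gene lists were chosen with earlier results of these data known. Named genes were the 10 members, *Arid1b*, the 2 smallest p of each partner list and the 5 closest to *Adamtsl3*; neighbours and marker genes are named for position or as markers. Alternatives changed the pseudocount, filter, normalisation, weighting, replicate block, length trend and libraries.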

Additional observations from a re-analysis of the deposited data

Results flagged for a closer look

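The gap of the highest or lowest library to its nearest neighbour, divided by the range of its group, was compared with a critical value of 0.71 in 44 groups of 5 libraries (the 10 genes, *Arid1b* and 11 marker sums, in HT and in WT). It was passed in 3 groups, where chance gives about 2.2. For *Pcolce2* in HT it was 0.716, because HT 1 (68.9 normalised counts) lay far above the other 4 HT libraries. For *Arid1b* in HT it was 0.735, because HT 4 (1505 normalised counts) lay far below the others. For the summed cartilage and bone markers in WT it was 0.801, because WT 3 (661 normalised counts) lay far above the others. *Adamtsl3* in HT, with HT 4 the lowest, did not pass. The longest coding transcript of *Arid1b* has 11325 bases. The HT 4 deviation of *Arid1b* was -0.80 on the log2 scale, beside a median of -0.34 in HT 4 for the highest decile of length. The part of the length trend in the *Arid1b* value was not tested.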

How the results depend on the processing

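Of 198 alternative values of the members' log2 fold changes over 20 alternatives, 0 moved by the spread between replicates (1 SD) or more, and 15 changed sign. Leaving out 1 of 5 libraries cannot shift a group mean that far. The filter, robust and block settings keep the fold change by construction, and the spread itself included HT 4. The count of 0 is therefore no measure of stability. The sign changes lay in *Adamtsl1* (3), *Adamtsl2* (5), *Adamtsl4* (1), *Fbn2* (4) and *Pcolce* (2), whose value with all libraries was under 0.25 in size. *Adamtsl3* ranged from 0.81 to 1.27, *Hmcn1* from 0.87 (length trend removed, without HT 4) to 1.26, *Pcolce2* from -0.97 to -0.70 and *Fbn1* from -0.22 to -0.05. Genes past the threshold numbered 0 with all libraries, 2 with array weights, 1 with the length trend removed and 2 with that trend removed and HT 4 left out, and leaving out 1 library at a time gave 0 to 2, above 0 only without HT 4. Members past it numbered 0, with 1 (*Adamtsl3*) under array weights, 1 with the length trend removed and HT 4 left out, and 0 to 1 leaving out 1 library at a time. *Adamtsl3* was selected on its difference without HT 4, so nothing is read from these member counts. Genes at an unadjusted p under 0.05 numbered 1429 without HT 4, 1280 with array weights and 1303 with the length trend removed and HT 4 left out, against 580. At a minimum mean of 100, 8 of the 10 members were tested. With the replicate number as a block, 0 genes passed and 558 had an unadjusted p under 0.05. Whether the numbers pair the mice was not tested. Correlations of same-numbered deviations were 0.091, 0.084, 0.082, -0.104 and 0.093. HT 1, 2, 3 and 5, but not HT 4, matched the WT library of their own number best. What depth adds to these errors was not tested.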

Other observations

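Marker sums of 4 further cell types were compared with the groups and did not separate them. Astrocyte and radial glia markers (10 genes) summed to between 49375 and 57795 normalised counts in HT and between 46508 and 54882 in WT. Oligodendrocyte lineage markers (10 genes) ranged from 13392 to 19506 in HT and from 13597 to 15993 in WT. Microglia markers (10 genes) ranged from 2005 to 3035 and from 2150 to 3617, and erythroid markers (7 in the table of 8 listed) from 5960.4 to 13733 and from 4528 to 13889. For skeletal muscle the ranges were 163 to 289.6 in HT and 198 to 487 in WT.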
